A study of Bos taurus with 129 samples.

Results

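The genes FKBP5, TSC22D3, ZBTB16, DUSP1, KLF9, DDIT4, NR3C1 and CXCR4 were followed in whole blood of beef steers from the day after arrival at a stocker facility to day 60. They were chosen by symbol as a set of glucocorticoid-induced stress genes, and all 8 of them were found among the 32395 genes of the count table. All 8 were also among the 18937 genes that were tested after the filter on low counts. NR3C1 belongs to the set as the receptor and not as an induced gene, and the 7 other genes are treated below as the induced genes.

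Blood RNA was sequenced from 26 commercial crossbred steers (Bos taurus) at day 0 and again at days 13, 28, 45 and 60, with 1 library per animal and day except for AAC animal 48 at day 13, whose library the authors removed. All steers were bought through an order buyer with unknown history, hauled over a long distance, vaccinated against respiratory viruses and treated with doramectin at enrollment on day 0, and revaccinated later. No library was taken before transport and no steer went without a mineral supplement, so transport, arrival, vaccination, age and diet cannot be told apart in any comparison with day 0. The labels separated 12 healthy steers, which were never diagnosed with or treated for bovine respiratory disease (BRD), from 14 steers labelled as BRD at some time over the 60 days. The labels do not give the day of diagnosis. Of the 8 steers fed amino acid-complexed Cu, Co, Mn and Zn (AAC), 4 were healthy and 4 had BRD. Of the 7 fed the complexed sources and also drenched with trace minerals before shipment, on day 0 and beside any treatment for illness (COMBO), 4 were healthy and 3 had BRD. Of the 11 fed sulfate sources (INR), 4 were healthy and 7 had BRD. In COMBO the healthy steers had entered pen 5 and the BRD steers pen 6, so label and enrollment pen cannot be told apart there.

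Glucocorticoids, of which cortisol is the main one in cattle, are released by the adrenal cortex under stress. They enter cells and bind the glucocorticoid receptor, the product of NR3C1, which is held ready by heat shock proteins and then moves to the nucleus and switches genes on or off. In blood, glucocorticoids are known to release neutrophils from the marrow and vessel walls and to damp inflammatory signalling. FKBP5 encodes a co-chaperone that lowers the affinity of the receptor for hormone, and so closes a feedback loop. TSC22D3 encodes GILZ, an anti-inflammatory leucine zipper protein, and DUSP1 a phosphatase that switches off MAP kinases. ZBTB16 and KLF9 encode zinc finger transcription factors. DDIT4 encodes REDD1, an inhibitor of mTORC1, and CXCR4 the receptor for the chemokine CXCL12, which retains leukocytes in bone marrow. Cortisol was not among the measurements used here.

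Total counts per library ranged from 31613545 to 61692136, with a median of 44268685. Levels are given as CPM, in which counts are scaled to library size with the trimmed mean of M-values. They are compared between libraries for 1 gene at a time, because transcript lengths were not at hand to compare genes. The tissue label fitted the leukocyte markers. For this check CPM was taken on total counts, without the trimmed mean scaling. PTPRC, the common leukocyte antigen, ranged from 1398 to 2389 CPM. CD3E of T cells ranged from 142.5 to 633.9 CPM and CD79A of B cells from 307.6 to 1020 CPM. The lowest count of any of the 8 genes in any library was 45, for KLF9. The lowest correlation of a library with the median profile of its day was 0.96, for INR animal 50 at day 13, and the day 60 library of INR animal 40 had the lowest RNA integrity named by the study.

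FKBP5 was higher and far more variable on day 0 than later. On day 0 its level ranged from 101.4 to 1155 CPM with a median of 221 (SD 246.5, n = 26 animals). The range was 102.3 to 310.4 CPM with a median of 142 at day 13 (n = 25) and 101.9 to 252.4 CPM with a median of 134.7 at day 28. At days 45 and 60 the medians were 141.9 and 133.6 CPM, with highest values of 303.5 and 198.1 CPM. The lowest animals of day 0 thus lay within the later range, while the high end of day 0 did not overlap it. Compared with day 0, FKBP5 fell 1.79-fold by day 13 (log2 fold change −0.84, SE 0.133, FDR 5.14e-07), and the log2 fold change was −0.91 at day 28, −0.81 at day 45 and −0.97 at day 60. The test used a single spread per gene for all days, so the SE and FDR of FKBP5 can be too small.

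A few animals had far more FKBP5 than the others on day 0. COMBO animals 6 and 42 and AAC animal 49, all healthy, had 1155, 750.8 and 726.7 CPM on day 0 and 142.5, 129.6 and 177.7 CPM at day 13. The highest BRD steer, INR animal 27, had 506.2 CPM on day 0 and 122.5 CPM at day 13. At the other end, AAC animal 48 and COMBO animal 18 had 101.9 and 101.4 CPM on day 0. In all, FKBP5 was highest on day 0 in 18 of 26 animals, and it was lower at day 13 than on day 0 in 19 of 25. Leaving out each animal in turn kept its log2 fold change at day 13 between −0.88 and −0.72.

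**Figure D1:**
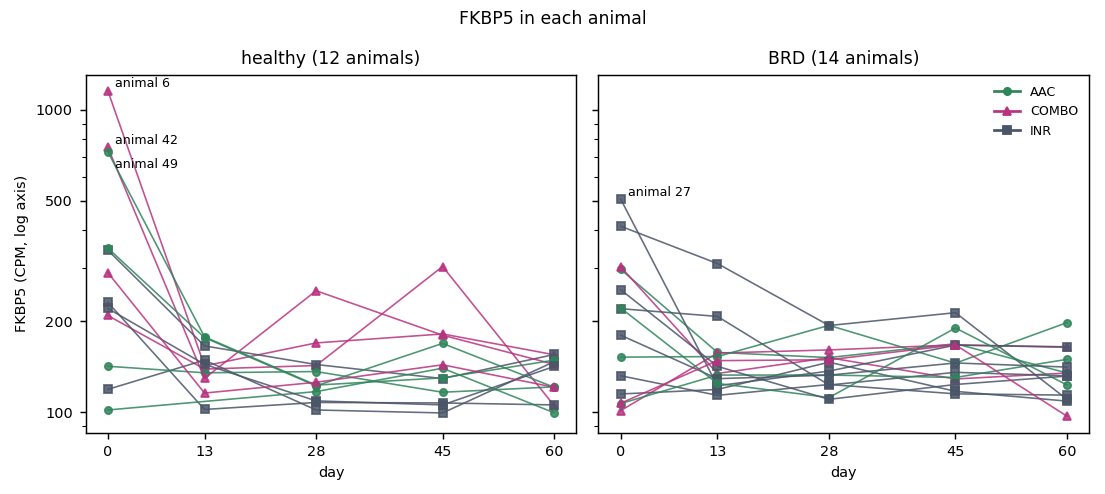
FKBP5 level (CPM, log axis) against day for each healthy steer on the left and each BRD steer on the right, with symbols for the treatments and lines joining the libraries of an animal. Animals 6, 42 and 49 start between 726.7 and 1155 CPM and lie between 129.6 and 177.7 CPM at day 13.

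TSC22D3 behaved in a similar way with a narrower spread. Its level ranged from 595.8 to 2018 CPM on day 0 (median 1191), from 516 to 1689 at day 13 (median 918) and from 492.4 to 1310 at day 28 (median 771.6), and the medians at days 45 and 60 were 950.9 and 860 CPM. The ranges of all days overlapped, but within animals 23 of 25 were lower at day 13 than on day 0. TSC22D3 fell 1.37-fold by day 13 (log2 fold change −0.46, SE 0.0827, FDR 9.23e-06) and 1.59-fold by day 28.

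DUSP1, the phosphatase gene, ranged from 47.45 to 423.2 CPM on day 0 and from 39.52 to 266.4 CPM at day 13. Its median was 71.12 CPM at day 13, 48.99 at day 28, 79 at day 45 and 77.37 at day 60, and the ranges of these days overlapped that of day 0. DUSP1 fell by 0.59 on the log2 scale by day 13 (SE 0.144, FDR 0.00115) and by 1.09 by day 28 (SE 0.143, FDR 1.35e-09). Day 28 was its lowest day in 16 of 26 animals.

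CXCR4, the marrow-retention receptor gene, had the steepest decline of the 8 genes at days 13 and 28. It ranged from 25.15 to 252.5 CPM on day 0 (median 110.6), from 25.73 to 213.7 at day 13 (median 60.26) and from 19 to 132.2 at day 28 (median 36.85). At day 45 the median was 60.14 CPM and at day 60 it was 50.89 CPM. The fold change was 1.96-fold lower at day 13 (log2 fold change −0.97, SE 0.152, FDR 4.09e-07) and 2.73-fold lower at day 28 (log2 fold change −1.45, SE 0.152, FDR 2.78e-13). CXCR4 was lower at day 28 than on day 0 in 25 of 26 animals, and day 28 was its lowest day in 15.

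DDIT4, the mTORC1 inhibitor gene, ranged from 23.94 to 194.7 CPM on day 0 (median 90.46) and had medians of 54.59, 44.61, 55.01 and 54.66 CPM at days 13, 28, 45 and 60. It fell 1.53-fold by day 13 (log2 fold change −0.61, SE 0.155, FDR 0.0017) and 1.8-fold by day 28, and it was lower at day 13 in 21 of 25 animals.

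The transcription factor genes KLF9 and ZBTB16 were expressed at low levels throughout. KLF9 ranged from 2.749 to 24.56 CPM on day 0 (median 11.26), and its later medians lay between 7 and 8.27 CPM. It fell by 0.64 on the log2 scale by day 13 (SE 0.169, FDR 0.00255). Its change at day 45 was −0.40 (SE 0.167, FDR 0.0644), which passed the threshold of 0.10 by little and was lost when any of animals 6, 16, 41, 46, 49 or 57 was left out, with FDR values over all omissions of 0.0188 to 0.159. ZBTB16 ranged from 3.807 to 11.45 CPM on day 0 (median 6.124), and its median was lowest at day 28, with 3.779 CPM, and was 5.4 CPM at day 60. ZBTB16 fell by 0.36 by day 13 (SE 0.101, FDR 0.004), by 0.66 by day 28 (SE 0.0999, FDR 8.68e-08) and by 0.29 by day 60 (SE 0.0995, FDR 0.02) on the log2 scale. In 8 of 26 animals its highest day was day 60, while day 0 was the highest in 13.

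NR3C1, the receptor gene, had the flattest profile. Its level ranged from 72.04 to 136.3 CPM on day 0 (median 101.8) and from 72.8 to 140 CPM at day 13 (median 108.7), and its medians at days 28, 45 and 60 were 107.1, 120.8 and 124.8 CPM. The groups of days overlapped over most of their range. The log2 fold change was 0.04 at day 13 (SE 0.0549, FDR 0.609) and 0.02 at day 28 (SE 0.0542, FDR 0.82). NR3C1 rose by day 45 (log2 fold change 0.20, SE 0.0542, FDR 0.00329) and by day 60 (0.21, SE 0.0543, FDR 0.00227), and it was higher than on day 0 in 22 and 21 of 26 animals at those days.

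**Figure D2:**
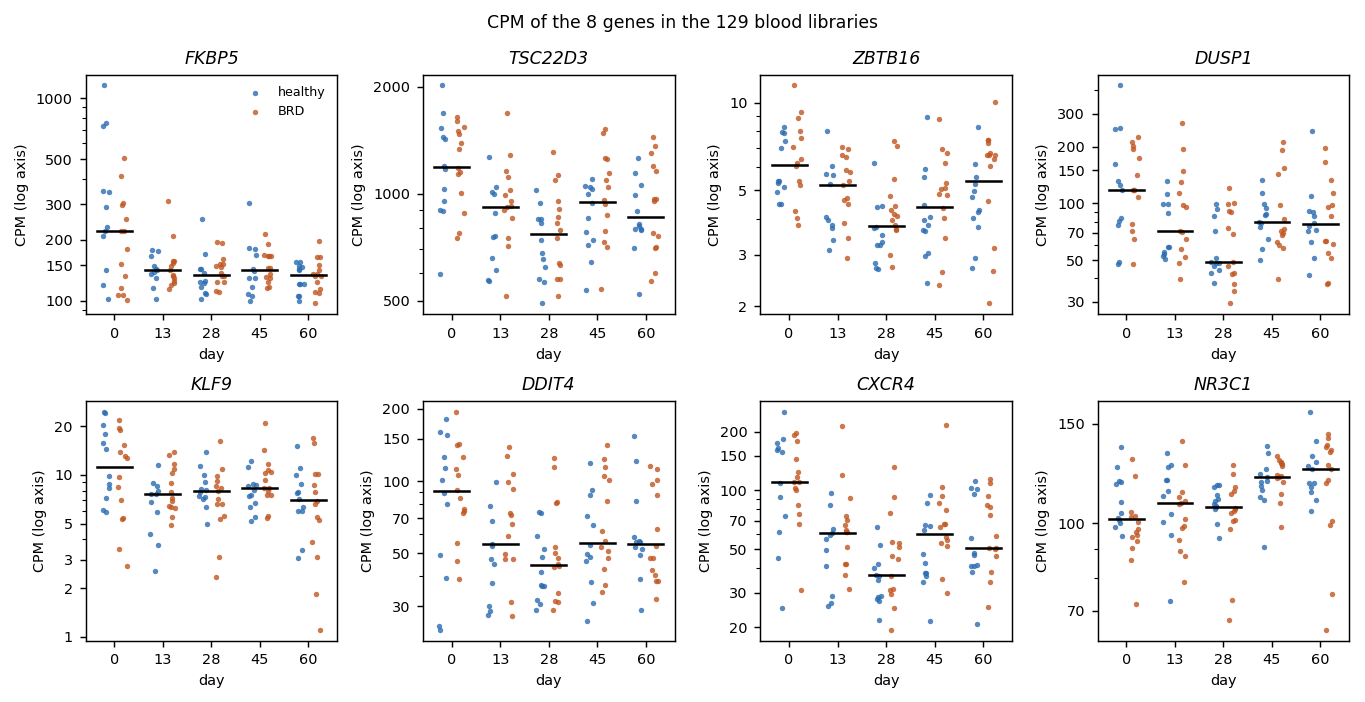
Level of each of the 8 genes (CPM, log axis) in each library against day, with a point per library coloured by disease label and a black line at the median of the day. The medians of the 7 induced genes are highest on day 0, and CXCR4 and DUSP1 reach their lowest medians, 36.85 and 48.99 CPM, at day 28.

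Each later day was compared with day 0 by an edgeR quasi-likelihood F-test with animal as a block, and a gene was called at an FDR below 0.10 over all tested genes. The comparisons share the day 0 libraries and are not independent of each other. At day 13, 7 of the 8 genes were lower and none was higher. Of all tested genes 15.9% were lower (3014 genes) and 17.3% higher (3275 genes). At day 28 again 7 were lower and 0 higher, beside 36% of all genes called, 3298 lower and 3527 higher. At day 45, 7 were lower and NR3C1 was higher, beside 15.2% of all genes lower and 15.8% higher. At day 60 also 7 were lower and NR3C1 was higher, beside 33.4%, 3101 lower and 3217 higher. The median log2 fold change of the 8 genes was −0.60, −0.76, −0.46 and −0.56 at days 13, 28, 45 and 60, while that of all tested genes was 0.01, 0.01, −0.01 and 0.00.

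**Figure D3:**
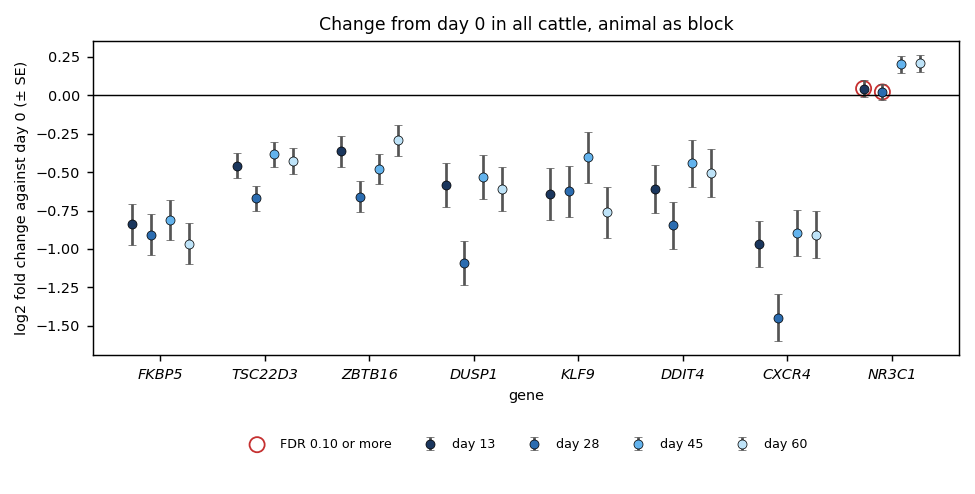
Log2 fold change against day 0 of each of the 8 genes at days 13, 28, 45 and 60 in all cattle, with bars of 1 standard error and red circles around values with an FDR of 0.10 or more. Only NR3C1 at days 13 and 28 is circled, at 0.04 and 0.02, and CXCR4 at day 28 is the lowest point, at −1.45.

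The decline was shared by most animals but not by all of them. At day 13, all 7 induced genes were lower than on day 0 in 8 of 25 animals, and 6 of the 7 were lower in 10 further animals. At day 28 all 7 were lower in 13 of 26 animals. COMBO animal 18, a BRD steer with a low day 0 level of FKBP5 and CXCR4 (101.4 and 30.92 CPM), had 1 of the 7 genes lower at day 13, and at days 45 and 60 it had 0 of the 7 lower.

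After day 28 the levels moved again. Between days 13 and 28 only DUSP1 was lower (log2 fold change −0.50, SE 0.143, FDR 0.0634), beside 0.776% of all genes lower and 1.19% higher, and CXCR4 had a change of −0.48 (FDR 0.102). Between days 28 and 45, 5 of the 8 genes rose, beside 13.8% of all genes higher and 15% lower. These were TSC22D3 (log2 fold change 0.29, SE 0.0816), DUSP1 (0.56, SE 0.141), DDIT4 (0.40, SE 0.153), NR3C1 (0.18, SE 0.0542) and CXCR4 (0.55, SE 0.149), while FKBP5 had a change of 0.09 (SE 0.129, FDR 0.655). The direction within animals was most uniform for NR3C1, which was higher at day 45 than at day 28 in 25 of 26 animals, and for TSC22D3 and CXCR4, which were higher in 23. Between days 45 and 60, none of the 8 genes was called with edgeR (1 at an unadjusted p below 0.05, and 0 with DESeq2 and with limma voom), beside 5.05% of all genes higher and 3.55% lower.

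Some blood cell markers also moved after day 0, and their part in the changes above was not tested. The counts of markers at day 13 stand beside 15.9% of all genes lower and 17.3% higher. In whole blood, fewer cells of a type and less RNA per cell cannot be told apart. The summed level of the neutrophil markers ranged from 1773 to 10980 CPM on day 0 (median 2842), from 1482 to 3942 at day 13 (median 2296) and from 1259 to 3591 at day 28 (median 2147), and 6 of the 10 tested neutrophil markers were lower and 1 was higher at day 13. The monocyte sum ranged from 1065 to 3848 CPM on day 0 (median 1919) and from 889.5 to 1738 CPM at day 13 (median 1245), with 3 of 8 markers lower and 1 higher. The T cell sum had medians of 2335 and 2195 CPM (range 1357 to 3652 and 1439 to 3259), with 1 of 12 markers lower and 1 higher, and the B cell sum had medians of 2099 and 2242 CPM (range 860.7 to 3647 and 1131 to 3078), with 3 of 8 higher and 0 lower. Cytotoxic cell markers summed to medians of 208.4 and 201.6 CPM (range 129.4 to 484 and 110.6 to 309.2), with 2 of 6 lower and 1 higher. Eosinophil and basophil markers summed to medians of 518.3 and 457.5 CPM (range 336.9 to 1196 and 300.3 to 1108), with 2 of 7 lower and 4 higher. The granulocyte markers CSF3R, PRG2 and EPX and the cytotoxic marker GNLY matched no row of the table, and CAMP did not pass the filter.

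Other genes of the glucocorticoid pathway were taken from lists. The lists were chosen with earlier results of these data known, so their counts are a description and not independent support. Of 24 further genes known to be induced by glucocorticoids, all were tested, and at day 13 18 were lower than on day 0 and 0 were higher, with a median log2 fold change of −0.38. At day 28, 19 were lower and 0 higher (median −0.51), at day 45 12 were lower and 2 higher (median −0.25), and at day 60 14 were lower and 2 higher (median −0.27). Of all tested genes, 15.9% were lower at day 13 and 15.2% at day 45. At days 28 and 60, 36% and 33.4% of all genes were called in either direction. PDK4, a kinase that turns muscle and other cells away from glucose oxidation, fell 6.14-fold by day 13 (FDR 1.24e-29) and 8.32-fold by day 28 (FDR 6.51e-35), more than any of the 8 genes. CD163, the haemoglobin scavenger receptor of monocytes, fell 3.38-fold by day 13, IL1R2, the decoy receptor for interleukin-1, fell by 1.52 on the log2 scale, and GLUL, glutamine synthetase, fell 1.67-fold. GLUL and the listed copy GLULP are near-identical, and their counts can be split between them. ANXA1, which encodes annexin A1, fell by 1.07 on the log2 scale by day 28. Between days 28 and 45, 12 of the 24 genes were higher and 0 were lower, beside 13.8% of all genes higher and 15% lower. The smallest p-values were those of TXNIP, ZFP36, CRISPLD2 and NFKBIA, with log2 fold changes of 0.48, 0.35, 0.79 and 0.36.

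The receptor, chaperone and cofactor list held 17 genes, of which HSD11B1 and HSD11B2, the enzymes that interconvert active and inactive hormone, did not pass the filter. Of the 15 tested genes, 4 were lower and 1 was higher at day 13, beside 15.9% of all genes lower and 17.3% higher. At day 28, 7 were lower and 0 higher, beside 36% of all genes called in either direction. At day 13 the smallest p-values were those of BAG1, NCOR1, NCOA1 and HSP90AB1, with log2 fold changes of −0.12, −0.06, 0.11 and −0.21. At day 45 none was lower and 9 were higher, beside 15.2% of all genes lower and 15.8% higher. The smallest p-values were those of STIP1 (log2 fold change 0.46, SE 0.0809), FKBP4 (0.44, SE 0.0875) and HSP90AA1 (0.40, SE 0.0806), which encode partners of the receptor in the heat shock protein complex. At day 60 4 were higher and 1, BAG1, was lower, beside 33.4% of all genes called in either direction.

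Of 12 cytokine and related genes known to be repressed by glucocorticoids, IL6 and CSF2 did not pass the filter. Of the 10 others, 2 were higher and 1 was lower at day 13, near the shares of all genes, 17.3% higher and 15.9% lower. At day 28, 2 were higher and 2 lower, beside 36% of all genes called in either direction. At day 45, 3 were higher and 2 lower, beside 15.8% of all genes higher and 15.2% lower. At day 60, 2 were higher and 2 lower, beside 33.4% of all genes called in either direction. PTGS2, which encodes cyclooxygenase 2, rose by day 13 (log2 fold change 0.75, SE 0.125, FDR 1.67e-06), and TNF rose by 0.23 on the log2 scale (SE 0.0424, FDR 1.01e-05). IL12B fell by 1.02 (SE 0.168, FDR 1.16e-06), and CXCL8, the neutrophil chemokine, fell by 0.35 by day 28 (SE 0.119, FDR 0.0168).

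Changes from day 0 were then read within each disease label. In healthy cattle 6 of the 8 genes were lower at day 13, beside 4.84% of all tested genes lower, and in BRD cattle 4 were lower, beside 8.35%. At day 28, 7 were lower in healthy and 7 in BRD cattle, beside 21% and 20% of all genes called in either direction. At day 45, 6 were lower in healthy and 5 in BRD cattle, beside 4.19% and 10.7% of all genes lower, and at day 60, 6 were lower in each label, beside 11.6% and 19.6% called in either direction. NR3C1 was higher in BRD cattle at day 45 (log2 fold change 0.29, SE 0.0742, beside 11.8% of all genes higher) and at day 60 (0.24, SE 0.0744). In healthy cattle its changes were 0.10 (FDR 0.583) and 0.17 (FDR 0.208) at those days.

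Of the 8 genes, FKBP5 had the smallest p for a difference of change between the labels. In healthy cattle FKBP5 had a median of 260.4 CPM on day 0 (range 101.9 to 1155) and 142.5 CPM at day 13 (range 102.3 to 177.7), and its log2 fold change was −1.24 (SE 0.192, FDR 2.66e-06). In BRD cattle the medians were 200.1 CPM (range 101.4 to 506.2) and 138.3 CPM (range 113.9 to 310.4), with a log2 fold change of −0.47 (SE 0.169, FDR 0.0515). The change was less negative in BRD cattle by 0.76 at day 13 (95% interval 0.27 to 1.26, unadjusted p 0.00332), 0.76 at day 28, 0.68 at day 45 and 0.72 at day 60. The fit used a single spread per gene over all days. Over animals, the FKBP5 change to day 13 had an SD of 1.008 in healthy and 0.7213 in BRD cattle on the log2 scale. The SE and p of FKBP5 here can therefore be too small, and its differences at the later days all share the day 0 libraries. None of these differences passed the adjustment over all genes (edgeR FDR 1 at day 13 and 0.951 at day 28). For the 7 other genes the difference at day 13 ranged from 0.03 for ZBTB16 (interval −0.37 to 0.43) to 0.69 for KLF9 (interval 0.04 to 1.35). No gene at all was called for a difference of change between the labels at any day, which is 0% of the tested genes. In the edgeR test, 619, 863, 801 and 596 genes had an unadjusted p below 0.05 at days 13, 28, 45 and 60. Each of these counts is below a share of 0.05 of the 18937 tested genes, the share awaited with no difference. DESeq2 and limma voom called none of the 8 genes.

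BRD and healthy cattle were also compared directly at each day, with the contrast averaged over the treatments. That fit took the libraries of an animal as independent and used a single spread per gene over all libraries. The SD of FKBP5 was 246.5 CPM on day 0 and 23.72 CPM at day 60. Its SE and p on day 0 can therefore be too small, also within COMBO. On day 0 FKBP5 was the gene of the set with the smallest p, with a log2 fold change of −0.80 in BRD against healthy cattle (SE 0.198, 95% interval −1.19 to −0.41, unadjusted p 0.000103). It did not pass the adjustment (FDR 0.142), and 0.0158% of all genes did. The call was sensitive to the choice of animals and tool. FKBP5 passed with DESeq2 (FDR 0.0186) and when animal 3, 16, 27, 40 or 48 was left out, with an FDR of 0.0791, 0.00344, 0.0748, 0.0724 and 0.0726 in that order, while over all omissions the FDR reached 0.487.

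The difference in FKBP5 on day 0 was largest in COMBO. Its log2 fold change in BRD against healthy cattle was −1.82 within COMBO (SE 0.391, FDR 0.00376, the only gene of the set called there, beside 1.75% of all genes lower), −0.76 within AAC (SE 0.344, FDR 0.24) and 0.19 within INR (SE 0.305, FDR 0.987). Within COMBO, the healthy steers 3, 6, 42 and 57 had 209.1, 1155, 750.8 and 289.7 CPM, and the BRD steers 16, 18 and 54 had 302.5, 101.4 and 107.3 CPM. Animal 16 thus lay within the range of the healthy steers, and the contrast in COMBO is also one of pen 6 against pen 5. Within the 4 pens that held both labels (8 healthy and 7 BRD steers), the log2 fold change of FKBP5 on day 0 was −0.18 (FDR 0.803, against a spread over all libraries).

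At the later days the 8 genes did not pass the test between BRD and healthy cattle. The share of all genes called was 0% at day 13, 0.00528% at day 28, 0% at day 45 and 0.00528% at day 60, and 0, 0, 0 and 1 of the 8 genes had an unadjusted p below 0.05. FKBP5 lay between 0.06 and 0.11 on the log2 scale at these days, with an interval of −0.34 to 0.45 at day 13. CXCR4 had the largest estimates, 0.46 at day 28 (interval −0.11 to 1.03) and 0.56 at day 45 (interval −0.01 to 1.13, FDR 1). ZBTB16 had an estimate of 0.39 at day 60 (interval 0.02 to 0.75, unadjusted p 0.0412, FDR 1).

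With pen in place of treatment as an additive term, TSC22D3, DUSP1, DDIT4 and CXCR4 passed as higher in BRD cattle at days 13, 28 and 45, and TSC22D3 at day 60, beside 1.86%, 5.04%, 2.02% and 1.93% of all genes higher. The log2 fold changes at day 28 were 0.50, 0.79, 0.93 and 1.05 for the 4 genes. That fit holds the pen level constant over days and, like the fit by treatment, takes the libraries of an animal as independent. Pen means the enrollment pen in all these fits, because the study rotated steers between pens and the labels give a single pen per animal. With pens fitted within each day, each estimate rests only on the 4 pens with both labels and on 1 library per animal. The spread in that fit still came from all libraries, with those of an animal taken as independent. Its estimates at day 28 were 0.47, 0.73, 0.86 and 0.94, and none of the 8 genes passed at any day (smallest FDR 0.181, for TSC22D3 on day 0). The estimates of the 4 genes within mixed pens were thus above 0 at day 28 but did not pass the test.

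**Figure D4:**
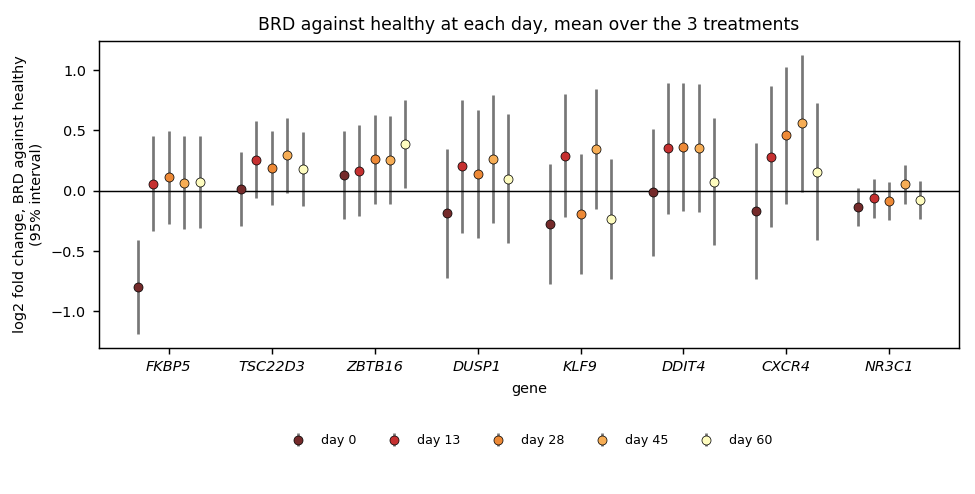
Log2 fold change of BRD against healthy cattle for each of the 8 genes at days 0, 13, 28, 45 and 60, averaged over the 3 treatments, with 95% intervals of the single gene. FKBP5 on day 0 lies at −0.80 with an interval below 0, and at the later days it lies between 0.06 and 0.11.

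The 3 treatments were compared at each day over both disease labels. The study assigned supplements to pen groups and not to single animals. AAC went to enrollment pens 2 and 8, COMBO to pens 5 and 6, and INR to pens 3, 4 and 7. The tests did not take pens as the replicates, so treatment and enrollment pen cannot be told apart in them. None of the 8 genes was called at day 0, 13, 28, 45 or 60 with edgeR, where 0.106%, 0.306%, 0.0422%, 0.037% and 0.0211% of all genes were called, and 0 of the 8 had an unadjusted p below 0.05 at days 0 to 28. The smallest FDR among the 8 genes was 0.859 on day 0 and 0.679 at day 13, and the pairwise log2 fold changes between treatments ran from −0.59 to 0.65 over all genes of the set and days. FKBP5 on day 0 had medians of 186.8 CPM in AAC (range 101.9 to 726.7), 289.7 CPM in COMBO (range 101.4 to 1155) and 220.6 CPM in INR (range 115.1 to 506.2), and these ranges overlapped. NR3C1 at day 28 had medians of 111.5, 99.68 and 107.3 CPM in AAC, COMBO and INR, and the log2 difference of AAC against COMBO was 0.24 (interval 0.03 to 0.44, FDR 0.775).

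How many genes passed as lower than on day 0 within a treatment depended on the day. At day 13, 4 of the 8 genes were lower in AAC, 6 in COMBO and 2 in INR, beside 2.78%, 8.37% and 3.31% of all genes lower. In INR at day 13 the genes called were FKBP5 (log2 fold change −0.63, SE 0.199) and CXCR4 (−0.80, SE 0.234), while DUSP1 had −0.21 (FDR 0.62) and KLF9 −0.28 (FDR 0.57). At day 45, 2 were lower in AAC, 1 in COMBO and 4 in INR, beside 5.91%, 1.1% and 6.58% of all genes. At day 60, 3 were lower in AAC, 4 in COMBO and 6 in INR, beside 3.41%, 5% and 9.38%. NR3C1 was higher in INR at day 45, beside 7.51% of all genes higher, and at day 60 in AAC and INR, beside 3.23% and 9.32%.

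The counts were highest at day 28 in AAC and COMBO. At that day, 5 of the 8 genes were lower in AAC, 7 in COMBO and 6 in INR, beside 6.41%, 5.02% and 6.98% of all genes lower. CXCR4 had log2 fold changes of −1.46 in AAC (SE 0.282), −1.53 in COMBO (SE 0.301) and −1.39 in INR (SE 0.236), and DUSP1 had −1.34, −1.08 and −0.91. The genes that did not pass at day 28 were ZBTB16 in AAC, at −0.42 (FDR 0.141), and KLF9 in AAC and INR, at −0.64 (FDR 0.189) and −0.44 (FDR 0.292), beside NR3C1 in each treatment. A difference of the change between treatments was called for none of the 8 genes, and for 0.037%, 0.00528%, 0% and 0% of all genes at days 13, 28, 45 and 60. DUSP1 at day 13 had the smallest p of the set for such a difference (unadjusted p 0.0338, FDR 0.509).

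The changes from day 0 to day 13 went together across animals for 6 of the genes. All 28 pairs of genes were related over the 25 animals with both libraries, by permutation tests with 100000 resamples. TSC22D3 changed together with DUSP1 (r = 0.761, rho = 0.72, permutation FDR of r 0.00021), with CXCR4 (r = 0.756, rho = 0.747) and with FKBP5 (r = 0.714, rho = 0.635), and DDIT4 changed together with CXCR4 (r = 0.733, rho = 0.758). Without the 2 animals farthest from the median of the first gene, these r values were 0.685, 0.739, 0.625 and 0.723. FKBP5 and DUSP1 had an r of 0.635, which was 0.431 without the 2 farthest animals. ZBTB16 did not go together with any other gene, with r between −0.068 and 0.203. NR3C1 passed with KLF9 by r (r = 0.5, permutation FDR 0.0232) and by rho at a permutation FDR of 0.0968. NR3C1 and TSC22D3 had an r of 0.38 (permutation FDR 0.0973) and a rho of 0.378 (permutation FDR 0.104). The labels give no sequencing batch within which these relations could be recomputed. Both changes of a pair come from the same libraries.

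**Figure D5:**
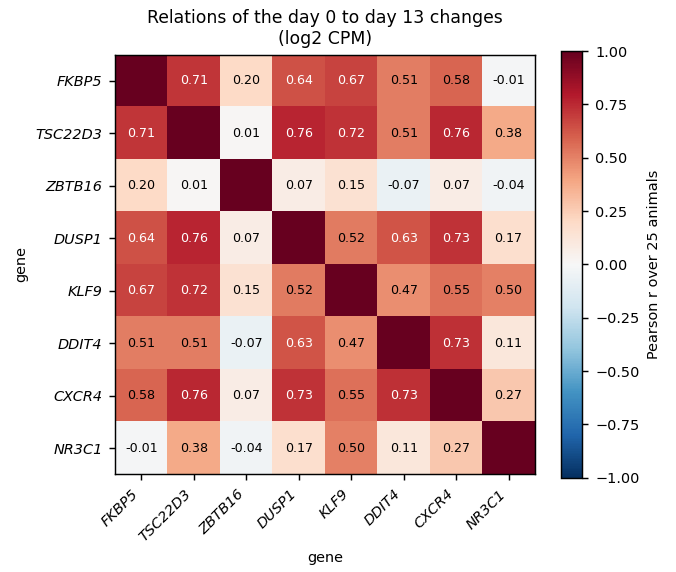
Pearson r between the day 0 to day 13 changes (log2 CPM) of each pair of genes over 25 animals, as a grid of the 8 genes with a colour scale from −1 to 1. The pairs among FKBP5, TSC22D3, DUSP1, KLF9, DDIT4 and CXCR4 have r between 0.465 and 0.761, and ZBTB16 has r of at most 0.203.

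The genes outside the set with the most similar profiles were ranked by Spearman's rho over all libraries, which share animals and days, as a description. TXNIP was first for TSC22D3 (rho = 0.845) and for DUSP1 (rho = 0.8428), and PFKFB3 and RGS2 followed for TSC22D3 with 0.8384 and 0.8214. BTG1 was the closest to CXCR4 (0.8716), and CD69 was also among its 3 closest, at 0.8042. BTG1 and SOCS1 were among the 3 closest to DDIT4 (0.7826 and 0.7776). The closest to FKBP5 were GLULP, MLXIP and GLUL (0.7362, 0.7316 and 0.7108), and the closest to KLF9 were GLULP, GLUL and FOXN2 (0.6985, 0.689 and 0.6774). GLULP and GLUL also followed TXNIP for DUSP1 (0.8267 and 0.8249). NR3C1 was closest to ARID4A, CBL and NIPBL (0.8404, 0.8091 and 0.805). ZBTB16 had the weakest neighbours of the set, GCNT1, CCR4 and KANK2 (0.5768, 0.5336 and 0.5243). Within days, rho of these pairs was lower for all of them, for example 0.8443 for TSC22D3 with TXNIP, 0.682 for FKBP5 with GLULP and 0.4088 for ZBTB16 with CCR4.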

How the data were processed

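The authors trimmed reads with Trimmomatic 0.39, used HISAT2 for mapping (build ARS-UCD1.3; the labels give version 2.1.1 and the methods a later one) and StringTie 2.2.0 for assembly, and derived counts per gene with prepDE at a read length of 150, per the labels and the study's methods. The deposited values are counts for 32395 genes, derived from coverage and not normalized. The AAC animal 48 library of day 13 was removed by the authors. No column lacked a sample.

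Counts were analysed in R 4.3.3 with edgeR 4.0.16 (TMM factors, filterByExpr over the 30 combinations of treatment, label and day, common dispersion, quasi-likelihood F-test, Benjamini-Hochberg over 18937 genes, FDR below 0.10). Days were compared with animal as a block, because the labels number the same animals at each day. The common dispersion was 0.0804 with the block (biological coefficient of variation 28.3%) and 0.152 in the fit of treatment, label and day means (39%), which was used between animals. Intervals are 95% normal intervals. Relations used log2 CPM with a prior count of 2 and scipy 1.17.1. Alternatives used limma 3.58.1 (voom), DESeq2 1.42.0, RLE factors, a trended dispersion, other filters and thresholds, pen terms and omission of each animal. Pens within days were chosen after seeing the data. The fits were also run on simulated counts. These held no animal or pen effect, and the fits were given their dispersion, so the run could not test how repeated animals or pens were handled.

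Members and gene lists were chosen with earlier results of these data known. Named genes are the 8 members, at most 4 list genes of smallest p per comparison, and the 3 genes of highest rho for each member. A gene that this rule names is not reported here. P-values of all comparisons of days were set against the spread within animals, taken as a single value per gene over all days. Those of tests between labels and treatments were set against a spread over all libraries, with the libraries of an animal taken as independent. Permutation tests used a single value per animal. No pair of libraries was identical.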

Additional observations from a re-analysis of the deposited data

Results flagged for a closer look

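Within each treatment and day of 4 to 10 animals, the animal farthest from the others was compared with Dixon's 95% critical value. Of 80 groups tested, 11 had an animal beyond it. The critical value holds for normal data, while CPM was used here without a log. The groups also share animals across genes and days, so this count cannot be set against a chance rate. The INR groups, with 11 animals, were not tested.

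In COMBO at day 28, animal 42 had 252.4 CPM of FKBP5 (the others 125.8 to 169.7), animal 57 had 6.199 CPM of ZBTB16 (3.001 to 4.379) and animal 54 had 67 CPM of NR3C1 (94.12 to 109.4). Animal 54 was also apart at day 60, with 64.86 CPM of NR3C1 (113.7 to 124.6). FKBP5 reached 303.5 CPM in COMBO animal 3 at day 45 (the others at most 181.7), and DUSP1 242.3 CPM in COMBO animal 6 at day 60 (54.84 to 133.8).

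In AAC on day 0, animal 49 had 726.7 CPM of FKBP5 (101.9 to 349). Animal 9 had 81.88 CPM of DDIT4 at day 28 (30.78 to 52.91). Animal 21 was apart in 3 groups, with 21.05 CPM of KLF9 at day 45 (5.503 to 10.36), 1442 CPM of TSC22D3 at day 60 (761 to 966.6) and 165.4 CPM of DUSP1 at day 60 (51.18 to 96.31).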

How the results depend on the processing

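Of the log2 fold changes of the 8 genes recomputed under alternatives, 3185 kept their side of the threshold, 25 passed only under the alternative, 14 were lost and none turned its direction with a call. Between days 28 and 13, where 1 gene was called, 2 were called with RLE factors, 2 with a mean of at least 1 CPM, 2 without the day 60 library of INR animal 40, 3 with DESeq2, and 0 at an FDR below 0.05. For BRD against healthy cattle on day 0, where 0 were called, 1 was called with DESeq2, 1 within COMBO alone, and 0 to 1 when an animal was left out. With pen in place of treatment 4, 4, 4 and 1 were called at days 13, 28, 45 and 60, and with pens within each day, chosen after seeing the data, 0. The cause of these shifts was not tested.

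With no replicate block for the animal, 0 of the 8 genes were called between days 28 and 13, 6 at day 45 and 7 at day 60 against day 0, and 4 between days 45 and 28. Without the pairing the genes called among all tested fell from 6289 to 3995 at day 13, from 6825 to 4025 at day 28, from 5861 to 2823 at day 45 and from 6318 to 3382 at day 60. KLF9 at day 45 was lost with limma voom (FDR 0.122), at an FDR below 0.05, and without the block (FDR 0.167). Leaving out each animal gave 7 to 7, 7 to 7, 7 to 8 and 8 to 8 genes called at days 13, 28, 45 and 60. KLF9 and ZBTB16, with the lowest counts, are the least precisely counted of the set.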

Other observations

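Platelet and red cell transcripts moved the opposite way from the induced genes after day 0. The summed platelet markers had a median of 751.8 CPM on day 0 (range 379.6 to 2344) and 1192 CPM at day 13 (range 512.9 to 2274), and 6 of 7 were higher and 0 lower at day 13. The summed erythroid markers had a median of 231.9 CPM on day 0 (highest 2643) and 2559 CPM at day 13 (range 216.8 to 28160), and all 7 tested were higher at day 13. Of all tested genes, 17.3% were higher and 15.9% lower at that day. At day 28 the medians of the platelet and erythroid sums were 1436 and 1039 CPM, with 5 and 4 of 7 markers higher, beside 36% of all genes called in either direction. CA1 was listed at 0 in every library.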
